A study of Homo sapiens with 12 samples.

Results

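The backbone of a transfected plasmid is everything outside its expression cassette. The Renilla luciferase plasmid carried, in map order, a promoter listed as HSV_TK_pro, the Renilla coding region (positions 2604 to 3539) and a 3′ UTR, and all positions before that promoter and after that UTR were taken as backbone. On the deposited map this left positions 1 to 1577 and 3596 to 4290, which are 2272 positions, or 4544 by strand, of 8580 by strand on the whole map. The listed region AmpR_pro, at positions 4069 to 4172, lies inside the backbone. Positions are those of the plasmid map, so no genome build applies, and no plasmid sequence was used here.

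HEK293T is a cell line from human embryonic kidney, in wide use because it is easily transfected. It was labelled wild type and carried the Renilla plasmid in every group. The cells also carried a firefly luciferase-GFP plasmid labelled either SM-nonopt or SM-opt, named for nonoptimal or optimal codons, and they were harvested 24 hours after transfection and treated briefly with cycloheximide, which holds ribosomes in place. RNA-seq and Ribo-seq, which sequences the fragments that ribosomes shield from nuclease, gave 4 groups of 3 replicates, 12 libraries in all. The labels name no separate cultures, so p-values measure the spread between these samples, which may be technical.

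Plasmid backbones are built for bacteria: they hold an origin of replication and a resistance gene, such as the β-lactamase gene that the AmpR promoter drives in bacteria, and no gene meant for the human cell. RNA polymerase II can nevertheless start at sites in plasmid DNA that resemble promoters, and it can read past a poly(A) site, the signal at which a mammalian transcript is cut and given its tail. A ribosome moves 1 codon at a time, so footprints of a translated frame begin mostly on the same position of the codon.

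Both kinds of library held backbone alignments, on both strands. The strand of the Renilla mRNA is called the reporter strand here, and the other the opposite strand. The 6 RNA-seq libraries held between 6542 and 10386 alignments lying wholly in the backbone. The Ribo-seq libraries held 698, 1982 and 1035 alignments of 27 to 30 nt, the lengths cut from the gel, with the nonoptimal reporter and 189, 189 and 250 with the optimal one, so that values of the latter are the least precise. Alignments to all 3 plasmid maps ranged from 26422 to 90999 in RNA-seq and from 1975 to 11028 in Ribo-seq. A level is the mean depth over the positions named, divided by the reporter-strand depth over Renilla's coding positions in that library, and is given as a percent of that depth or as a ratio. Nonoptimal replicate 3 had the highest opposite-strand level in both assays.

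Much of the backbone is not particular to the Renilla plasmid. Reads at positions 1 to 1523 also aligned to the nonoptimal firefly map at a constant offset, and those at 8 to 1564 to the optimal one. At the other end the stretches were 4041 to 4290 and 4043 to 4290. Not every read in these stretches also aligned to a firefly map. Of opposite-strand RNA-seq 5′ ends, 59.4% in window 101 to 200, 71.9% in 201 to 300 and 37.9% in 4096 to 4195 came from reads that did. In each window from 301 to 1500 it was 100%. On each firefly map the offsets of the pair of stretches differed by 4290, the last aligned position of the Renilla map, so that the last and the first position of the Renilla map are neighbours there and the common stretch runs on for 1773 nt on the nonoptimal map and 1812 nt on the optimal one. Of the backbone alignments, 65.0%, 69.4% and 77.3% of RNA-seq with the nonoptimal reporter and 67.5%, 68.4% and 74.6% with the optimal one came from reads that also aligned to a firefly map. In Ribo-seq the share was 74.4%, 74.6% and 68.3% against 75.7%, 75.1% and 76.0%. The RNA-seq groups overlapped (-0.39 points, SE 4.24; exact permutation p = 0.9), and the Ribo-seq groups did not (3.19 points, SE 2.07; exact permutation p = 0.1, adjusted 0.367). Without nonoptimal replicate 3 the Ribo-seq difference was 1.13 points. The plasmid of origin of these reads cannot be told apart. The stretch shared with both firefly maps, positions 1 to 1523 and 4043 to 4290, is therefore described separately from the 447 nt just after the listed 3′ UTR, positions 3596 to 4042, called Renilla-only here because no stretch in the same orientation was found on both firefly maps. The stretch of the nonoptimal map begins at 4041, and inside the Renilla-only stretch 2 alignments also matched the nonoptimal map inverted, at 3816 to 3862, and 1 the optimal map, at 3836 to 3862. Reads crossing the ends of the linear map aligned to the firefly maps only, 41 to 160 on the reporter strand and 730 to 1106 on the opposite strand of each RNA-seq library, and depth falls toward both map ends for lack of them.

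**Figure D1:**
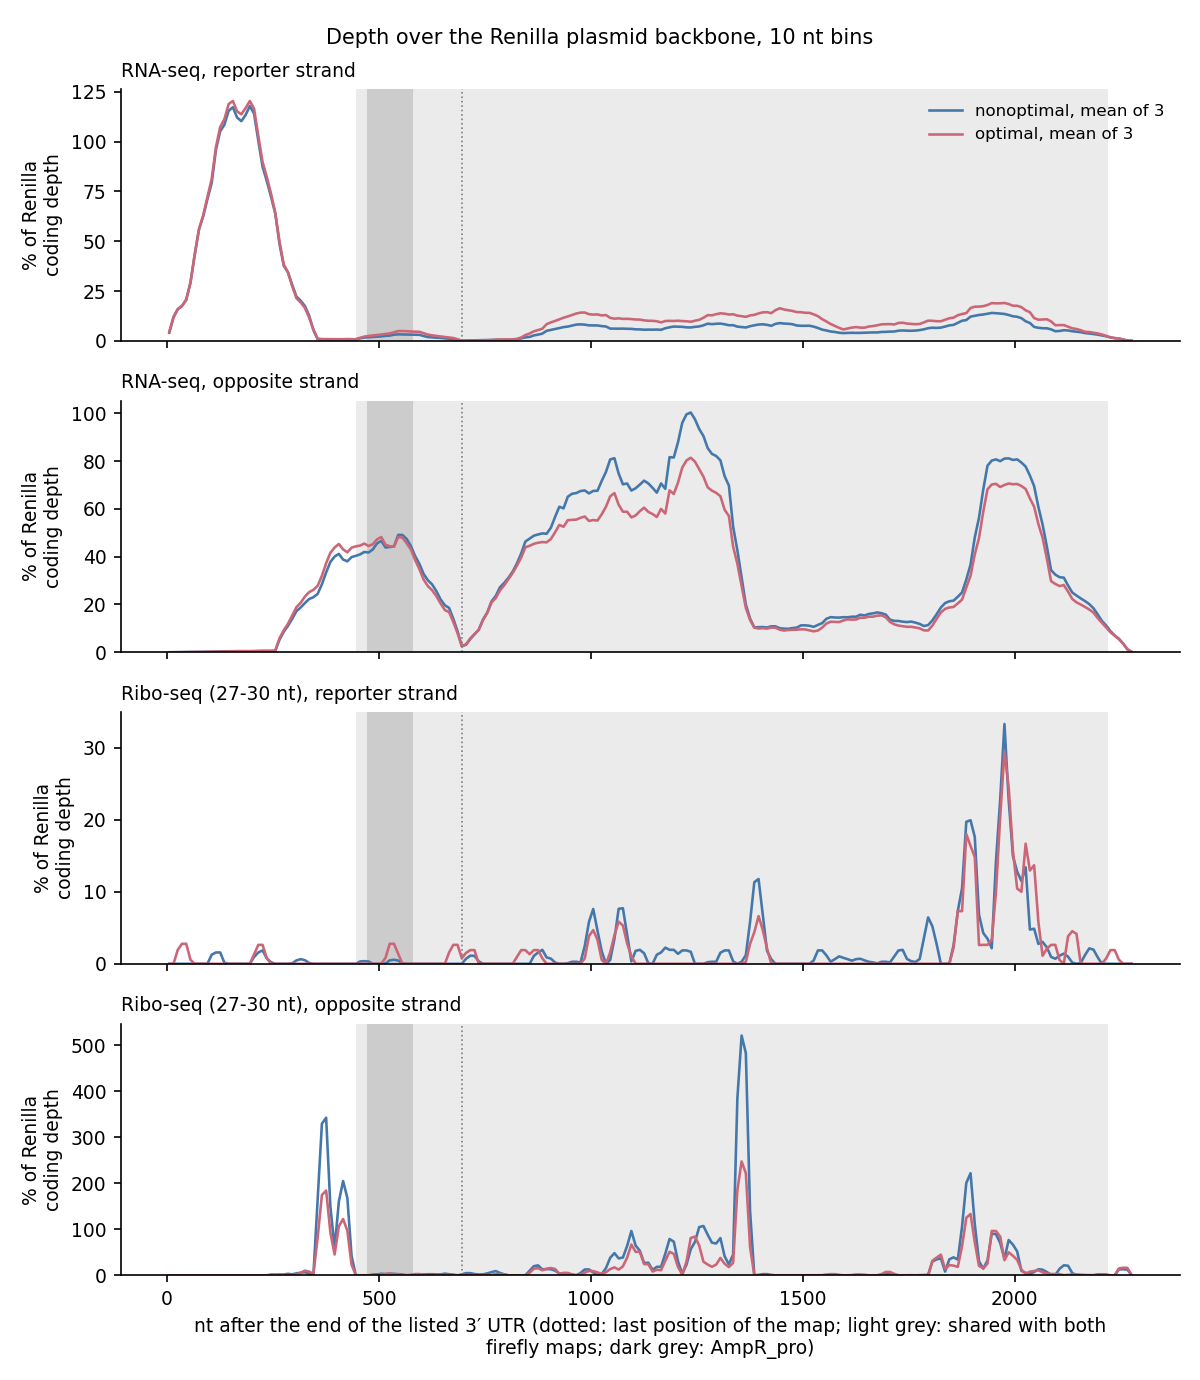
Mean depth of 3 libraries in bins of 10 nt (vertical axis, percent of Renilla coding depth; the 4 panels have different scales) against distance in nt after the listed 3′ UTR, for both assays and strands and both reporters. Reporter-strand RNA is highest just after the listed UTR. Opposite-strand RNA appears as 3 broad blocks and opposite-strand footprints as narrower ones. At the dotted line, the map's ends, crossing reads are missing, 730 to 1106 on the opposite strand of each RNA-seq library. The low opposite-strand RNA there does not show separate blocks. Alignments that reach out of the backbone are not counted, which lowers RNA depth at its outer edges.

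Reporter-strand RNA ran on past the listed 3′ UTR and ended at the same place in every library. Counting all alignments, its level over the first 100 nt after the UTR (3596 to 3695) was 110% to 119% of Renilla coding depth in the 6 libraries, and over the next 100 nt 117% to 127%. It dropped below 50% at position 3860 in 6 of 6 libraries, 265 nt after the listed UTR, and below 5% at 3941 or 3942. The most common 3′ end of a reporter-strand alignment was 3859, with 1047 of 10968 pooled alignments and 9.39% ± 1.31 (SD, n = 6) of a library's. Over 3896 to 3995 the level was 7.37% to 8.77%. The window with the highest mean level of alignments wholly in the backbone was 3696 to 3795, at 110%, 106% and 106% with the nonoptimal reporter and 114%, 109% and 108% with the optimal one. The following window, 3796 to 3895, came next at 67.4% ± 2.90 (SD, n = 6), and the first, 3596 to 3695, at 33.3% ± 0.658 (SD, n = 6). That last value is low because alignments reaching back into the listed UTR are left out.

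This downstream stretch held almost no reporter-strand footprints. Of the 27 to 30 nt footprints, 5 pooled 5′ ends beside the nonoptimal reporter fell on it, and the level was 0.263% ± 0.305 (SD, n = 3) of the Renilla coding depth, against an RNA level of 48.3% ± 1.11 (SD, n = 3) there. Beside the optimal reporter the footprint level was 0.345% ± 0.300 (SD, n = 3), with 0 in replicate 2, and the RNA level 49.2% ± 1.35 (SD, n = 3). The RNA level of the Renilla-only stretch did not differ detectably between the reporters, with a log2 difference of 0.027 (SE 0.030) and p = 0.5 in the exact two-sided permutation test.

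Opposite-strand RNA met the end of the reporter-strand RNA. Read in its own direction, from high to low positions, it fell below 5% at position 3858 to 3860, so at this junction both strands exceeded 5% over 81 to 83 nt. Over the Renilla coding region the opposite-strand level was 0.231% to 0.457%, and over the promoter 6.52% to 12.04%. On positions 1 to 1577 it was 27.5% to 61.3%. In each of the 6 libraries the level over positions 1 to 1577 was above that over the promoter, and that over the promoter above that over the coding region.

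Within the backbone the opposite-strand RNA lay in blocks. The highest window was 501 to 600, at 56.8%, 75.8% and 142% with the nonoptimal reporter and 61.4%, 61.1% and 100.4% with the optimal one. Window 1201 to 1300 followed, at 43.0%, 56.3% and 114% against 48.8%, 46.4% and 90.1%. Window 301 to 400 came after it, at 48.4%, 62.0% and 108% against 51.3%, 49.8% and 77.5%. Replicate 3 was the highest of its group in each of these windows, for both reporters. Between the blocks, window 701 to 800 had 10.0% ± 5.11 (SD, n = 6), and 801 to 900 had 11.8% ± 5.38 (SD, n = 6). No single alignment end dominated: the most common opposite-strand 5′ end, 1380, held 297 of 17379 pooled alignments, and 1357 and 372 held 230 and 268. The most common 3′ end, 487, held 427 of 17711. These are ends of sequenced RNA fragments, so they do not tell where transcripts start or how many starts there are.

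AmpR_pro lay in the opposite-strand RNA on the far side of the map's ends, where crossing reads are missing. Its opposite-strand RNA level was 36.6%, 43.1% and 56.8% with the nonoptimal reporter and 44.3%, 40.2% and 53.1% with the optimal one, against a reporter-strand level of 2.27% to 4.11%. Footprints hardly touched it: 15 opposite-strand and 4 reporter-strand alignments of 27 to 30 nt overlapped it in all 6 libraries together, at 1.64% ± 1.35 and 0.462% ± 0.892 (SD, n = 6) of coding depth. In RNA-seq the reporter-strand levels were 2.27%, 2.70% and 2.89% (nonoptimal) against 4.11%, 3.44% and 3.91% (optimal), without overlap, while the opposite-strand groups overlapped.

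Reporter-strand RNA of the shared stretch separated the reporters, in a design too small to pass 0.05. The level was 5.23%, 5.98% and 5.69% with the nonoptimal reporter and 9.99%, 8.50% and 8.52% with the optimal one. All 3 optimal libraries lay above all 3 nonoptimal ones. The log2 difference was 0.67 (SE 0.095), or 1.596-fold, with p = 0.1 in the exact two-sided permutation test, the smallest that 3 against 3 allows, and an adjusted p of 0.7 over the 7 stretch comparisons. Since the firefly plasmid carries this stretch too, the plasmid that gave the added RNA cannot be told apart. RNA-seq alignments to all 3 maps averaged 38693 per library with the nonoptimal reporter and 79885 with the optimal one. Those to the Renilla map averaged 18555 and 20574. Their relation to this level was not tested. Over the whole reporter strand of the backbone the levels were 0.138, 0.141 and 0.138 against 0.178, 0.162 and 0.162, again without overlap, a log2 difference of 0.26 (SE 0.047) and 1.2-fold, with an exact permutation p of 0.1 and an adjusted p of 0.367 over 11 comparisons. Without reads that also align to a firefly map the log2 difference was 0.015 (exact permutation p = 0.6). All reporter-strand 5′ ends in windows 101 to 1300 came from such reads. What is left is mainly the Renilla-only stretch, so this value does not test the difference in the shared stretch.

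The same pattern ran along the stretch window by window. Over the map, RNA-seq levels were fully separate between the reporters in 28.3% of the windows of 100 nt that held at least 60 5′ ends (17 of 60). Among backbone windows it was 15 of the 37 tested of 46, or 40.5%, all higher beside the optimal reporter and all on the reporter strand, where 19 were tested. On the opposite strand 0 of 18 were separate. These 15 windows covered 101 to 1500 and 4096 to 4195, all in the stretch that reads share with a firefly map, and neighbouring windows share reads. Without those reads 1 of 8 backbone windows (12.5%) was separate, lower beside the optimal reporter, against 3 of 31 (9.68%) over the map.

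**Figure D2:**
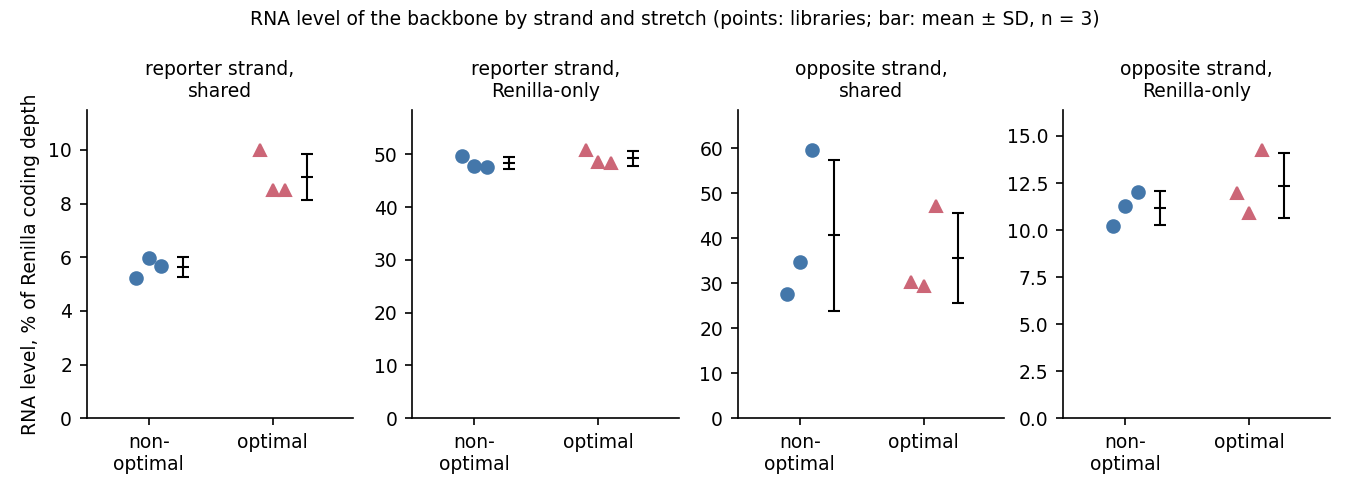
RNA level (vertical axis, percent of Renilla coding depth, from 0 in each panel and with different scales) of each library by reporter for both strands and stretches, with the mean ± SD of 3 libraries beside the points. On the reporter strand of the shared stretch all 3 optimal values (8.50% to 9.99%) lie above all 3 nonoptimal ones (5.23% to 5.98%), and the groups overlap in the other panels.

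Opposite-strand RNA did not separate the reporters. Over the shared stretch it was 27.7%, 34.7% and 59.6% with the nonoptimal reporter and 30.3%, 29.4% and 47.2% with the optimal one, with replicate 3 highest in both groups. The log2 difference was -0.15 (exact permutation p = 0.7, SE 0.40), and without nonoptimal replicate 3 it was 0.17. Over the Renilla-only stretch the levels were 10.2%, 11.3% and 12.02% against 11.9%, 10.9% and 14.2%, a log2 difference of 0.14 (exact permutation p = 0.5, SE 0.13). Over the whole opposite strand they were 0.237, 0.294 and 0.490 against 0.261, 0.252 and 0.398, a log2 difference of -0.13 (exact permutation p = 0.7, SE 0.38). Without nonoptimal replicate 3 this was 0.17 too. Of all backbone RNA alignments, 69.6% ± 7.63 and 63.8% ± 6.36 (SD, n = 3 each) lay on the opposite strand, a difference of -5.78 points (SE 5.74) with an exact permutation p of 0.4 and an adjusted p of 0.9. The share was lower with the optimal reporter in 3 of 3 pairs of the same number (exact sign-flip permutation p = 0.25, the smallest for 3 pairs). Without nonoptimal replicate 3 the difference was -1.57 points, and without reads that also align to a firefly map it was 0.71 points.

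Footprints lay almost wholly on the opposite strand. Their opposite-strand share was 91.1%, 92.2% and 94.6% with the nonoptimal reporter and 92.6%, 90.5% and 91.2% with the optimal one, against 63.1%, 67.6%, 78.0%, 59.4%, 60.8% and 71.1% of RNA-seq alignments in the same order. The series describes the RNA-seq as paired with the Ribo-seq, and the share was higher in Ribo-seq in 6 of 6 pairs, by 25.3 points ± 6.18 (SD). The exact two-sided sign-flip permutation test gave p = 0.03125, the smallest that 6 pairs allow, and an adjusted p of 0.0625 over 6 comparisons. The Renilla-only stretch weighs on this difference. By 5′ end it held 5442 of the 7913 reporter-strand RNA-seq alignments beside the nonoptimal reporter and 5999 of 10340 beside the optimal one. Reporter-strand footprints there numbered 5 and 2. The difference was not computed without that stretch. Between the reporters the share differed by -1.21 points (exact permutation p = 0.5, SE 1.2), and by -0.23 points without nonoptimal replicate 3. At this depth the 95% Wilson interval of a single library was widest in optimal replicate 2, from 85.4% to 93.9%.

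Opposite-strand footprints concentrated in 3 blocks that only partly followed the RNA. Window 601 to 700 was highest, at 21.6%, 95.8% and 409% of Renilla coding depth with the nonoptimal reporter and 72.4%, 42.8% and 136% with the optimal one. Window 3896 to 3995, in the Renilla-only stretch, came next, at 34.5%, 69.7% and 217% against 63.5%, 40.5% and 78.4%. Window 1201 to 1300 came after it, at 34.5%, 54.6% and 120.0% against 64.4%, 46.2% and 64.1%. Nonoptimal replicate 3 was highest in each of the 3 windows, and nonoptimal replicate 1 lowest. The coding depth of nonoptimal replicate 3 was a mean of 21.1 footprints per position, against 91.6 and 118 in nonoptimal replicates 1 and 2. Its backbone held 1035 footprints, against 698 and 1982 in those 2 libraries. The optimal libraries were shallow in both regions, with coding depths of at most 17.5 and 189, 189 and 250 backbone footprints. The part of coding depth in the levels of these windows was not tested. Between the blocks, windows 701 to 1100 held 4, 4, 2 and 8 pooled 5′ ends on this strand at mean RNA levels of 10.0% to 15.03%.

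Per RNA, the Renilla-only stretch carried more footprints than the shared stretch. On the opposite strand its footprint level divided by its RNA level was 1.14, 2.24 and 6.17 with the nonoptimal reporter and 1.87, 1.37 and 1.92 with the optimal one, above 1, the value of the Renilla coding region, in 6 of 6 pairs. Over the shared stretch it was 0.291, 0.533 and 0.953 against 0.583, 0.397 and 0.470, below 1 in 6 of 6. The ratio in the Renilla-only stretch was 4.11-fold that of the shared stretch, with a range of 3.21 to 6.48 over the pairs. Each of these 3 comparisons had p = 0.03125 in the exact sign-flip permutation test over 6 pairs, with an adjusted p of 0.03125 over the 4 stretch comparisons and 0.0446 over these and the 6 above together. These comparisons were chosen after the values had been seen, and dropping any pair leaves 5, too few for a p below 0.05. A few positions weigh on these ratios. In the Renilla-only stretch, positions 3977, 3980 and 4028 held 231, 191 and 203 of the 1019 pooled opposite-strand footprint 5′ ends. In the shared stretch, position 678 held 573. The ratios by stretch were not computed without such positions. Over both stretches the log2 ratio was -0.69 ± 0.58 (SD), negative in 5 of 6 pairs, with an adjusted p of 0.075 (exact sign-flip permutation test). Without reads that also align to a firefly map it was 0.41, in the opposite direction. Leaving these reads out removes most of the shared stretch, so this change restates the contrast between the stretches.

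By window, the footprint level exceeded the RNA level most in 3896 to 3995, with a ratio of 2.95 ± 2.33 (SD, n = 6), 601 to 700, with 2.65 ± 1.70, and 1101 to 1200, with 2.58 ± 0.835. It was 0.974 ± 0.211 in 1201 to 1300 and 1.04 ± 0.692 in 3996 to 4095. In window 4096 to 4195, which holds most of AmpR_pro, it was 0.047 ± 0.035, and in 701 to 800 0.033 ± 0.040. Windows of similar RNA level thus differed widely: 4096 to 4195 and 3996 to 4095 had RNA levels of 44.3% ± 8.09 and 42.8% ± 5.55, and footprint levels of 2.08% ± 1.73 and 46.4% ± 34.5 (SD, n = 6).

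Reporter-strand footprints were few. They had a level of 0.00841, 0.0165 and 0.0337 with the nonoptimal reporter and 0.0146, 0.0127 and 0.0222 with the optimal one, and the groups overlapped (log2 difference -0.063, SE 0.63, exact permutation p = 0.9). Divided by the RNA level this was 0.107 of the coding value on average, lower in 6 of 6 pairs (exact sign-flip permutation p = 0.03125, adjusted 0.0625). The 3 highest windows were neighbours: 1201 to 1300 at 13.6% ± 6.73, 1301 to 1400 at 7.35% ± 3.54 and 1101 to 1200 at 5.22% ± 2.88 (SD, n = 6), with 101, 47 and 56 pooled 5′ ends. Over the shared stretch the footprint level per RNA level was 0.203, 0.350 and 0.734 against 0.174, 0.182 and 0.319, with an adjusted p of 0.03125 over 4 (exact sign-flip permutation test). With all Ribo-seq lengths counted the log2 ratio went from -1.81 to -0.50 and the adjusted p to 0.188.

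**Figure D3:**
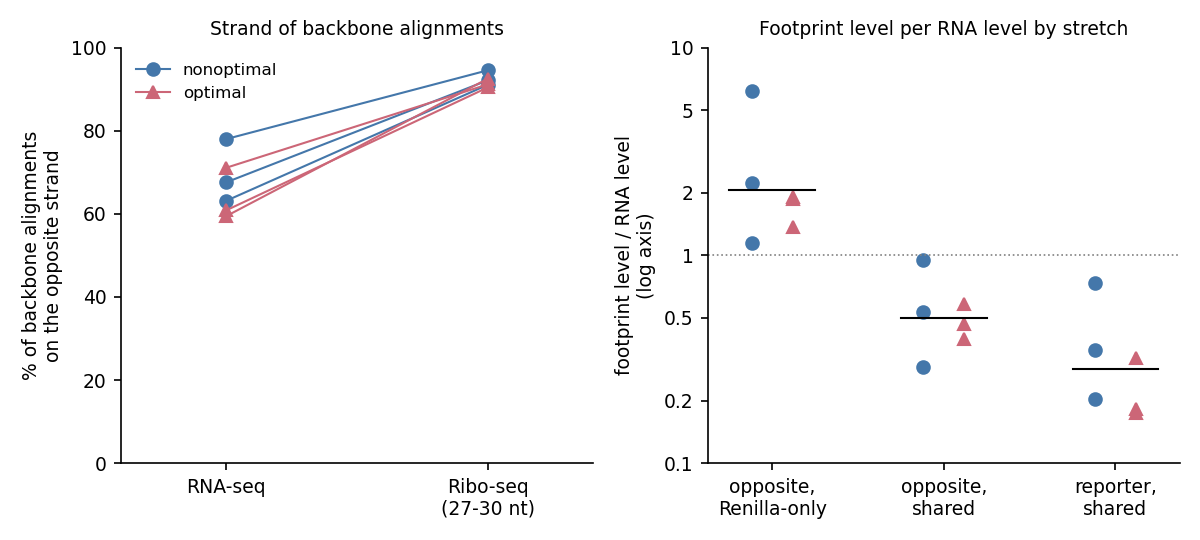
Left, percent of backbone alignments on the opposite strand in each RNA-seq library and, joined by a line, the Ribo-seq library of the same reporter and number. Right, footprint level divided by RNA level by strand and stretch (log axis, dotted line at 1, the Renilla coding region; points are library pairs, bars the geometric mean of 6). All 6 lines rise, and all 6 pairs lie above 1 on the opposite strand of the Renilla-only stretch and below 1 in the shared stretch.

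Footprint levels did not separate the reporters. On the opposite strand of the whole backbone they were 0.0863, 0.195 and 0.592 with the nonoptimal reporter and 0.184, 0.123 and 0.229 with the optimal one, a log2 difference of -0.32 (exact permutation p = 0.8, SE 0.85), and 0.41 without nonoptimal replicate 3. The footprint level per RNA level on this strand was 0.746 ± 0.428 and 0.589 ± 0.110 (SD, n = 3 each), a log2 difference of -0.19 (exact permutation p = 0.8, SE 0.52), and 0.24 without nonoptimal replicate 3. Of the backbone windows with at least 60 pooled 5′ ends, 0 of 10 were separate between the reporters, beside 0.0% of all 23 such windows of the map. The range of nonoptimal values, 6.86-fold from lowest to highest, was wider than that of the optimal ones, 1.87-fold, so only large differences could have been seen.

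Opposite-strand footprints favoured a codon position in 2 of the blocks, where a few positions held many of the 5′ ends. The position that led in the other 5 libraries was taken, and the share of 5′ ends on it was measured in the library left out. In the Renilla-only stretch it was 80.1%, 82.5% and 78.2% with the nonoptimal reporter and 73.8%, 75.6% and 83.3% with the optimal one, from 1019 pooled ends, beside Renilla coding shares in these libraries of 81.3%, 81.6%, 81.2%, 79.7%, 79.7% and 75.3%. Windows 401 to 500, 501 to 600 and 601 to 700 had shares of 83.3% ± 10.3, 73.5% ± 4.94 and 76.4% ± 9.90 (SD, n = 6), all on the same codon position, as did 301 to 400 at 66.6% ± 8.64, where the optimal libraries held only 3, 4 and 6 ends. In the remaining block the share was lower and the leading position changed from window to window: 57.2% ± 12.4 in 1101 to 1200, 47.0% ± 11.99 in 1201 to 1300 and 41.8% ± 15.4 in 1301 to 1400. On the reporter strand the only window with enough footprints, 1201 to 1300, had 65.4% ± 19.7.

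Over all of positions 1 to 1577 the share was 62.3%, 58.7% and 66.4% against 58.8%, 64.3% and 69.0%, and the groups overlapped (1.56 points, SE 3.70; exact permutation p = 0.7). It was below that of the coding region in 6 of 6 libraries, by 16.6 points ± 5.92 (SD), with an exact sign-flip permutation p of 0.03125 and an adjusted p of 0.0625. With each position counted once the difference was -8.05 points (exact sign-flip permutation test, adjusted p = 0.075). A few positions weigh on these shares. In the Renilla-only stretch the 1019 ends fell on 51 positions, and with each position counted once per library the share was 49.1% ± 8.51 (SD, n = 6). In window 601 to 700, position 678 held 573 of the 894 pooled ends. Counted once, the shares were 67.6% ± 21.1 in 401 to 500, 51.4% ± 6.96 in 501 to 600 and 47.4% ± 8.82 in 601 to 700 (SD, n = 6).

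**Figure D4:**
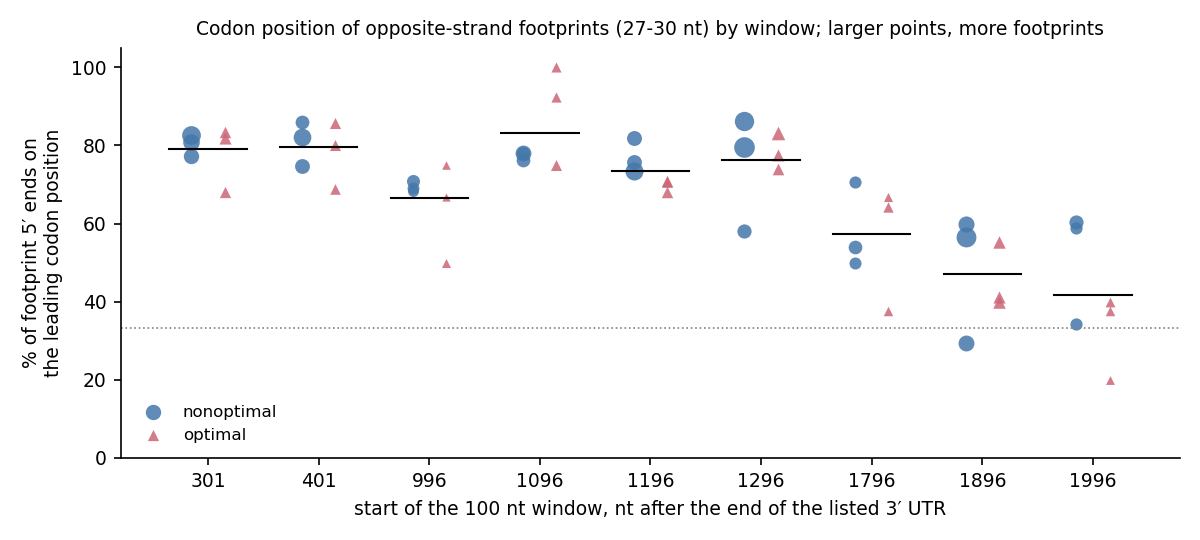
Percent of opposite-strand 27 to 30 nt footprint 5′ ends on the codon position that led in the other 5 libraries (vertical axis), for each window of 100 nt with at least 60 pooled ends, placed by its distance in nt after the listed 3′ UTR; bars are means of 6 libraries, larger points hold more footprints and the dotted line marks an even spread over the 3 positions. The first 6 windows have means of 66.6% to 83.3% and the last 3 of 41.8% to 57.2%.

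Single positions held a large part of the footprints. Of the 2272 positions, 410 held any opposite-strand 5′ end. Position 678 held 3.62%, 13.8% and 22.9% of a library's opposite-strand footprints with the nonoptimal reporter and 10.3%, 7.60% and 18.9% with the optimal one. It had 573 pooled ends with a mean length of 29.8 nt. Position 1208 held 272 pooled ends and between 2.99% and 9.14%. These were the positions with at least 5% in at least 4 of 6 libraries, and together they held 19.1% ± 7.93 (SD, n = 6). Just under that threshold, positions 3977, 4028 and 1272 reached 5% in 3 libraries each, with 231, 203 and 157 pooled ends.

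Backbone footprints and Renilla coding footprints had similar mean lengths. Between 27 and 30 nt the mean length was 28.67 nt ± 0.29 in the backbone and 28.64 nt ± 0.081 over the coding region (SD, n = 6), higher in the backbone in 3 of 6 libraries, with differences from -0.32 to 0.30 nt and an exact sign-flip permutation p of 0.969. Of all lengths, 80.6% ± 11.1 of opposite-strand, 53.4% ± 13.7 of reporter-strand and 84.3% ± 6.64 of coding alignments were 27 to 30 nt. In the whole backbone this share was 79.5%, 86.5% and 91.5% with the nonoptimal reporter and 78.4%, 65.6% and 61.7% with the optimal one. The groups did not overlap (-17.2 points, SE 6.13; exact permutation p = 0.1, adjusted 0.367). Without reads that also align to a firefly map the difference was -7.37 points (exact permutation p = 0.2). The coding region of the same libraries had 87.7%, 89.4% and 89.8% against 87.2%, 75.2% and 76.4%, so the share was lower beside the optimal reporter there too.

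Backbone alignments made up 31.0% ± 13.1 of the 27 to 30 nt footprints on the Renilla map and 46.3% ± 4.48 of its RNA-seq alignments (SD, n = 6 each). The share was lower in Ribo-seq in 5 of 6 pairs, by 15.3 points ± 8.996 (SD), with an exact sign-flip permutation p of 0.0625 and an adjusted p of 0.075. The exception was nonoptimal replicate 3, with 54.5% (95% Wilson interval 52.3% to 56.8%) in Ribo-seq and 53.4% in RNA-seq. Of the backbone RNA-seq alignments, 5442 of 25121 (nonoptimal) and 5999 of 28222 (optimal) lay on the reporter strand of the Renilla-only stretch. Reporter-strand footprints there numbered 5 and 2. The share was not computed without these alignments.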

How the data were processed

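The authors deposited, for each library, alignments to 3 plasmid maps with start, end and strand, 1 or more lines to an alignment, and a list of 27 regions. The submitters' processing notes name UMI-tools, Bowtie 1.2.2, SAMtools 1.12, STAR 2.6.0a, Salmon 1.6.0 and bedtools without a role. The values are positions, not counts per gene, so no count model was used. Lines with equal alignment fields were merged. RNA-seq mate 2 lay on the transcript strand, and mate 1 was turned. Members and tests were chosen with earlier results of these data known, and windows, positions and listed regions were named by a fixed rule; comparisons by stretch and RNA ends were chosen after seeing the values. Groups were compared by exact two-sided permutation tests (smallest p 0.1 for 3 against 3, 0.03125 for 6 pairs, 0.25 for 3 pairs) with Benjamini-Hochberg adjustment. Deviations of window levels from the group means correlated between RNA-seq libraries of the same number (r 0.771, 0.387 and 0.875), and not in each pair of Ribo-seq (0.468, -0.374 and 0.277). Between RNA-seq and Ribo-seq of the same number, over 9 windows, r was 0.058, -0.029 and 0.413 (nonoptimal) and 0.0185, -0.39 and -0.281 (optimal), so the pairing of the assays rests on the series' design text. Wilson intervals cover counting error only. Scripts ran in Python 3.11.15 (numpy 2.4.6, pandas 2.3.3, matplotlib 3.10.9) and were tested on simulated data.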

Additional observations from a re-analysis of the deposited data

Results flagged for a closer look

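Alignments of 139 nt, the longest in Ribo-seq and outside the 27 to 30 nt cut from the gel, lay in the backbone of Ribo-seq libraries. Libraries with more than 3 were flagged. Nonoptimal replicate 1 held 8, and optimal replicates 1, 2 and 3 held 28, 13 and 12. Nonoptimal replicates 2 and 3 held 1 and 2. In optimal replicate 1 the 139 nt alignments were 52.9% of the reporter-strand backbone alignments of all lengths (18 of only 34), and 4.83% of those on the opposite strand. Over the Renilla coding region 0 were found in the 6 libraries.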

How the results depend on the processing

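With 3 libraries against 3 the exact test cannot fall below 0.1, so for the 11 reporter comparisons directions are compared: 111 of 131 recomputed differences kept theirs. Without reads that also align to a firefly map the sign turned for opposite-strand RNA (log2 0.067), reporter-strand footprints (0.41) and the opposite-strand share of RNA (0.71 points). It turned without scaling for opposite-strand RNA (0.060) and, scaled by all alignments to the map, for reporter-strand footprints (0.099). With all Ribo-seq lengths, which include the 139 nt alignments, it turned for reporter-strand footprints (1.34), opposite-strand footprints per RNA (0.034) and the codon-position share (-2.50 points). With each position counted once it turned for the opposite-strand share of footprints (3.39 points). Leaving out each library in turn gave -0.36 to 0.17 for opposite-strand RNA, -0.56 to 0.44 for reporter-strand footprints, -0.98 to 0.41 for opposite-strand footprints, -0.62 to 0.24 for opposite-strand footprints per RNA, -3.16 to 2.98 points for the share of RNA reads on both plasmids and -0.91 to 4.19 points for the codon-position share. For stretches, an addition made after seeing the data, it gave -0.39 to 0.17 for opposite-strand RNA of the shared stretch, and -0.96 to 0.44 and -1.05 to 0.28 for opposite-strand footprints of the shared and Renilla-only stretches. Of the 64 recomputed paired differences, 60 kept their direction. Without reads on both plasmids the opposite-strand footprint level per RNA turned (0.41), as did the length difference (-0.10 nt, and -0.033 to 0.090 nt leaving out each pair). Leaving out reads on both plasmids removes most of the shared stretch. Counting alignments that overlap the backbone edge brought adjusted p to 0.0469 for the opposite-strand share (34.2 points), reporter-strand footprints per RNA (-3.56) and the backbone share (-24.2 points), and dropping the deepest 5% of positions did so for footprints per RNA on the opposite (-1.41) and the reporter strand (-3.50). With 5 pairs no p can fall below 0.0625, so each footprint-per-RNA comparison by stretch lost its call, at -2.09 to -1.67 (reporter, shared), -1.18 to -0.84 (opposite, shared), 0.73 to 1.22 (opposite, Renilla-only) and 1.91 to 2.11 (their difference); all lengths ended the first (-0.50). The windows whose reporter groups did not overlap in RNA-seq were 8 of 21 at 200 nt (11 of 36, or 30.6%, over the map) and 1 of 8 without reads on both plasmids (3 of 31, or 9.68%), and in Ribo-seq 1 of 17 with at least 20 ends (2 of 38, or 5.26%). The causes were not tested.

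Pairing the reporters by replicate number (a replicate block) cannot alter a difference of means, and 3 pairs cannot give a p below 0.25. No call could therefore change, and this setting does not test the results. The log2 difference of reporter-strand RNA was 0.26 with an exact sign-flip permutation p of 0.25. With no replicate block between the assays, 6 against 6, the adjusted exact permutation p was 0.00433 for the opposite-strand share (25.3 points) and 0.0346 for the backbone share (-15.3 points). For the codon-position share of backbone against coding region (-16.6 points) it was 0.00433 too. Both of those values come from the same Ribo-seq library, a pairing that this test ignores. Ribo-seq depth limits the optimal libraries most, with 189 to 250 backbone footprints each, and no interval is given for levels.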
